A study of Rattus norvegicus with 12 samples.

Results

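AMP-activated protein kinase (AMPK) is a sensor of cellular energy built from a catalytic alpha, a scaffolding beta and a nucleotide-binding gamma subunit, and its subunit genes were followed here by mRNA in rat heart. The members were 6 listed genes, Prkaa1 and Prkaa2 (alpha1, alpha2), Prkab1 and Prkab2 (beta1, beta2), and Prkag1 and Prkag2 (gamma1, gamma2). They were picked by gene symbol from a table of 17602 genes and not by a cut on their values, though earlier results of these data were known. A row was found for 5 of the 6, and all 5 passed the filter on low values that left 10526 genes. Prkag1 was not analysed here, so the gamma class is described by Prkag2, with the third gamma isoform, Prkag3, beside it as a gene outside the list.

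Bulk RNA sequencing of cardiac muscle covered 3 groups of 4 samples from ZSF1 rats, a strain whose obese animals carry defective leptin receptors and serve as a model of heart failure with preserved ejection fraction. The groups were lean controls, untreated obese rats, and obese rats that drank 24 mM nicotinamide (NAM), a precursor of NAD+, between 8 and 20 weeks of age. The labels call the obesity of both obese groups diet-induced, state an age only for the NAM treatment, and give no sex or sequencing batch, and a batch effect that coincides with the groups cannot be told apart here. They do not say that each sample is a separate animal either. P-values therefore set group differences against the spread between these samples, which may not be the spread between animals.

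Values are TPM, the length-corrected share of transcripts, so levels of different genes can be set side by side, and the depth behind them is unknown. Because a share falls when other transcripts rise, the results for the subunits and the named pathway genes are also given after rescaling every sample by its median ratio to the average sample. Transcripts of the mitochondrial genome accounted for 66.2 to 70.4% of TPM among the lean samples, 74.6 to 75.5% among the obese and 69.9 to 73.8% among the NAM-treated. The median change of all genes was -0.20 on the log2 scale in obese against lean hearts and 0.25 in NAM-treated against obese hearts, as deposited. Cardiomyocyte markers matched the labelled tissue, with 13 of 14 measured and a summed TPM of 28215 to 32523 among the lean, 20012 to 22648 among the obese and 24734 to 28110 among the NAM-treated samples. Of 10 lymphocyte markers, 9 were below the filter.

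AMPK is switched on when AMP and ADP displace ATP on the gamma subunit and an upstream kinase, chiefly LKB1, phosphorylates the alpha subunit. The active kinase lowers fat synthesis, favours fatty acid oxidation and glucose uptake, and starts autophagy. In rodent heart alpha2 is the main catalytic isoform of the myocytes, alpha1 is more widespread among cell types, and dominant mutations of human PRKAG2 cause a cardiomyopathy with glycogen storage and pre-excitation.

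The start regions of the alpha isoforms and of Prkag2 are shown because these genes behaved most differently across the groups. RefSeq lists 1 start window for each alpha gene and 2 for Prkag2, each running from 250 bases before to 50 bases after the annotated start on the GRCr8 assembly, which is not the build of the expression table. Windows were matched by symbol for all 6 listed genes. Capitals mark GGGCGG, the GC box bound by Sp factors, or its reverse complement. The Prkaa2 window lies at chr5:125108275-125108574 on the minus strand, and that of Prkaa1 at chr2:55967525-55967824 on the plus strand. Those of Prkag2 lie at chr4:10744445-10744744 and chr4:10939230-10939529, both on the plus strand.
Prkaa2: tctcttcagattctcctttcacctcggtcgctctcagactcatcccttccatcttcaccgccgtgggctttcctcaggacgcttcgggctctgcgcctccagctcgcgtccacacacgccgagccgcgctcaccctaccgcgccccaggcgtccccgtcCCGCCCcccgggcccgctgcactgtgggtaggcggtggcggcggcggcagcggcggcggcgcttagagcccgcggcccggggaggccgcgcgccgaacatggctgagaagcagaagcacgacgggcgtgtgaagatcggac
Prkaa1: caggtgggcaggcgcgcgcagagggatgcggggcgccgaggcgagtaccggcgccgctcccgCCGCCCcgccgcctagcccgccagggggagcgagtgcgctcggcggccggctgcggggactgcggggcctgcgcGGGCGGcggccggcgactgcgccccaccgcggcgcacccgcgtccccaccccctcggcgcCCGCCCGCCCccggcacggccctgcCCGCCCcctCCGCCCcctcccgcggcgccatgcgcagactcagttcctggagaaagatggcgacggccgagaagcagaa
Prkag2, upstream start: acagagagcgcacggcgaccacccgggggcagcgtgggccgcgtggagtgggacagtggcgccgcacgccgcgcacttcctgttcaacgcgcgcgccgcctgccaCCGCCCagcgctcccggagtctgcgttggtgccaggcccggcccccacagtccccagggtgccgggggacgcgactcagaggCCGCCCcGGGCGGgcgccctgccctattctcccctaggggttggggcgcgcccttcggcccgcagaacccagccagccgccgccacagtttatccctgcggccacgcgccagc
Prkag2, downstream start: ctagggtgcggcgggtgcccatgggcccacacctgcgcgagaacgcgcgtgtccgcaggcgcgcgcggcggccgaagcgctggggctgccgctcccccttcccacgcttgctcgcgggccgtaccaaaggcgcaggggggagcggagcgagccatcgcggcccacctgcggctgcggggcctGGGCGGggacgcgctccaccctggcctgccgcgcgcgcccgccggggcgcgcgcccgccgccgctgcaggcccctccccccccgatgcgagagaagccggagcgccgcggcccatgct
On either strand GGGCGG occurred 6 times in the Prkaa1 window, with 2 of the matches overlapping, and 1 time in that of Prkaa2. The Prkag2 windows held 3 and 1 matches. Of 33469 rat windows of the same length, 33.1% held at least 1 match. Neither TATAAA, present in 14.2% of windows, nor TNAAGGTCA, a motif of estrogen-related receptors present in 1.20%, was found on either strand of any window of the listed genes. G and C made up 81.3% of the Prkaa1 window, 70.7% of that of Prkaa2, and 76.0% and 80.3% of those of Prkag2, against a median of 51.7% over all windows. A match describes the letters only. The expression table gives 1 value per gene, so transcripts from the separate Prkag2 starts were not distinguished.

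In obese hearts Prkaa2, the catalytic alpha2 subunit, was far less abundant than in lean hearts. It was higher in NAM-treated than in untreated obese hearts. As deposited most but not all NAM-treated samples reached the lean level, and after rescaling most did not. Prkaa2 measured 22.9, 21.2, 23.0 and 21.1 TPM in the lean samples. It measured 9.63, 14.0, 10.1 and 12.4 TPM in the obese samples. It measured 22.1, 16.9, 21.3 and 24.0 TPM in the NAM-treated samples. Every obese sample lay below every lean and every NAM-treated sample, while 3 of the 4 NAM-treated samples were at or above the lowest lean sample and NAM-treated replicate 2 lay below all of them. The means were 22.0 ± 1.04 TPM (SD, n = 4) in the lean, 11.5 ± 2.01 in the obese and 21.1 ± 2.97 in the NAM-treated hearts.

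**Figure D1:**
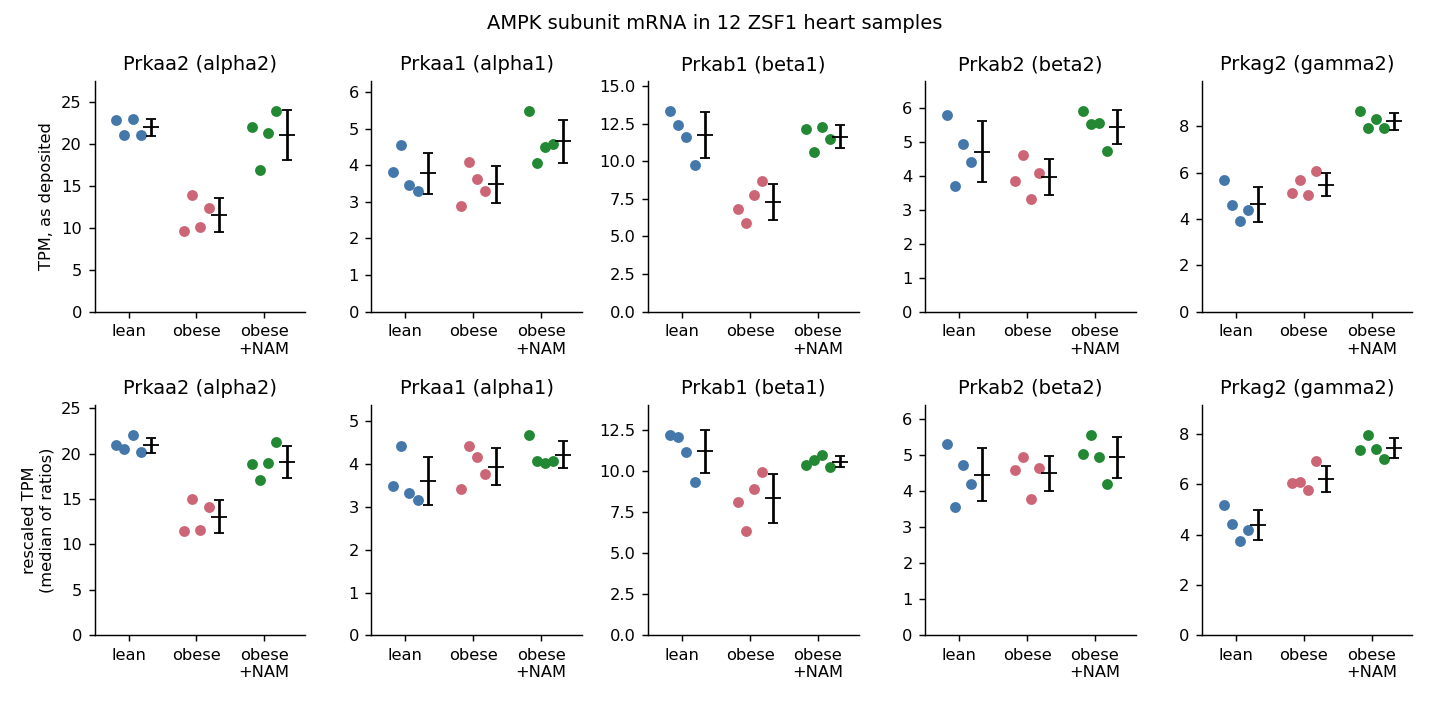
Level of the 5 measured AMPK subunit genes in each of the 12 samples, as deposited TPM (upper row) and after rescaling (lower row), with axes starting at 0. Points are samples in replicate order, and black bars show the mean and SD of the 4 samples of a group. Prkaa2 is lowest in obese hearts on both scales, and Prkag2 rises from lean over obese to NAM-treated hearts after rescaling with no overlap between groups.

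Prkaa2 fell by 0.89 on the log2(TPM + 1) scale in obese against lean hearts (SE 0.12, limma adjusted p = 0.00169), a fold change of 0.539. It rose by 0.82 in NAM-treated against obese hearts (SE 0.12, limma adjusted p = 0.00292), a fold change of 1.77. The obese samples enter both comparisons, so the values are not independent of each other. Between NAM-treated and lean hearts the difference was -0.070 with a 95% interval from -0.34 to 0.20 (limma adjusted p = 0.815). After rescaling, the change in obese hearts was -0.65 (adjusted p = 0.00842) and the rise with NAM was 0.52 (adjusted p = 0.0345). The obese samples still did not overlap with either other group. The rescaled levels ranged from 20.2 to 22.1 in lean, 11.5 to 15.0 in obese and 17.0 to 21.3 in NAM-treated samples. On that scale NAM-treated replicates 1, 2 and 3, at 18.9, 17.0 and 19.0, lay below every lean sample, and only replicate 4 lay within the lean range. The fall in obese hearts passed the test with any of the 12 samples left out on either scale, with a highest adjusted p of 0.0363. The rescaled rise with NAM lost its call without lean replicate 2 or 3, obese replicate 1, 3 or 4, or NAM-treated replicate 1, 3 or 4, where it was 0.47 to 0.56 with adjusted p of 0.0503 to 0.102.

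Bulk tissue cannot tell fewer cells of a type from less RNA per cell. As deposited, most cardiomyocyte markers moved in the same direction as Prkaa2, as did the median of all genes. Of the 13 markers, 12 fell and 1, Myh7, rose in obese hearts as deposited, where 16.5% of all genes fell and 0.352% rose. With NAM 11 rose and none fell, where 28.8% of all genes rose and 0.466% fell. After rescaling, 2 fell and 1 rose in obese hearts, against 0.751% and 0.589% of all genes, and 1 rose with NAM, against 0.200%. The rescaled change with NAM was negative, unlike that of Prkaa2, for Tnnt2, Tnni3, Myl2, Myl3, Ckm and Mb. It lay between -0.15 for Myl2 and -0.0085 for Tnnt2, with none of these called, and it was positive for the other markers. Set against the geometric mean of the 13 markers in the same sample, the log2 level of Prkaa2 was -5.46 ± 0.0962 (SD, n = 4) in the lean, -5.88 ± 0.248 in the obese and -5.44 ± 0.164 in the NAM-treated hearts. This ratio does not depend on the scaling of a sample. Obese and lean samples did not overlap in it, since the highest obese value was -5.65 and the lowest lean value was -5.58, whereas the lowest NAM-treated value of -5.67 reached into the obese range. The measure was added after the values were seen and carries no test.

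The median changes of several other marker lists had the opposite sign to the change of Prkaa2, with few single markers called. After rescaling, the median of 10 fibroblast markers was 0.49 in obese against lean hearts and -0.50 with NAM, where 2 fell, against 0.513% of all genes. As deposited 1 fibroblast marker rose in obese hearts, where 0.352% of all genes rose, and 1 fell with NAM, where 0.466% of all genes fell. The median was 0.33 and then -0.22 for 10 macrophage markers, 1.29 and -1.49 for 5 erythroid markers and 0.35 and -0.44 for 4 adipocyte markers, with none called. Endothelial markers (9 tested, 0.19 and -0.10) and those of smooth muscle and pericytes (7 tested, 0.056 and 0.073) had smaller medians and no call on that scale. The summed fibroblast level ranged from 622 to 670 TPM among lean, 545 to 959 among obese and 549 to 673 among NAM-treated samples, and the erythroid sum from 724 to 1596, 1662 to 4020 and 487 to 2302 TPM. Atrial markers summed to 99.8 to 169 TPM in lean samples and 121 to 588 in obese samples, and to 1122 TPM in NAM-treated replicate 1 against 176 to 232 in the other NAM-treated samples. Without that sample Prkaa2 was higher with NAM than in untreated obese hearts by 0.80 as deposited (limma adjusted p = 0.0128) and by 0.52 after rescaling (adjusted p = 0.0968). Prkag2 without it was higher with NAM than in lean hearts by 0.69 (limma adjusted p = 0.0165) and 0.66 after rescaling (adjusted p = 0.0140). The part of these cell types in the results was not tested.

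Prkaa1, the catalytic alpha1 subunit, did not show this difference. Prkaa1 measured 3.82, 4.55, 3.46 and 3.29 TPM in lean, 2.88, 4.09, 3.63 and 3.29 in obese, and 5.48, 4.05, 4.50 and 4.57 in NAM-treated samples. All 3 groups overlapped. The difference between obese and lean hearts was -0.096 (95% interval -0.35 to 0.16, limma adjusted p = 0.604) and 0.11 after rescaling (95% interval -0.12 to 0.33). Prkaa1 rose with NAM by 0.34 as deposited (limma adjusted p = 0.0493), against 0.080 after rescaling (adjusted p = 0.750). The deposited call was lost without replicate 1, 3 or 4 of any group, where the value was 0.27 to 0.36 with adjusted p of 0.0525 to 0.138.

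The balance of the catalytic isoforms was compared as Prkaa2/Prkaa1 within each sample, which removes the scaling. It was 5.92 ± 0.890 (SD, n = 4) in the lean, 3.32 ± 0.400 in the obese and 4.55 ± 0.551 in the NAM-treated hearts. The obese samples lay between 2.79 and 3.75, below all lean samples, which lay between 4.65 and 6.64, and below all NAM-treated samples, which lay between 4.04 and 5.24. The log2 ratio was lower by 0.83 in obese than in lean hearts and higher by 0.45 with NAM than without, each at p = 0.029 in a two-sided exact permutation test, which cannot go lower with 4 samples a group. After adjustment for the 6 ratio tests both had p = 0.0857 in the exact permutation test, so neither passed 0.05. Alpha2 made up 85.4 ± 2.10% (SD, n = 4) of alpha TPM in the lean, 76.7 ± 2.25% in the obese and 81.8 ± 1.75% in the NAM-treated hearts. The summed alpha level was 25.8 ± 1.04 TPM, 15.0 ± 2.41 and 25.7 ± 3.35 in the same order.

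**Figure D2:**
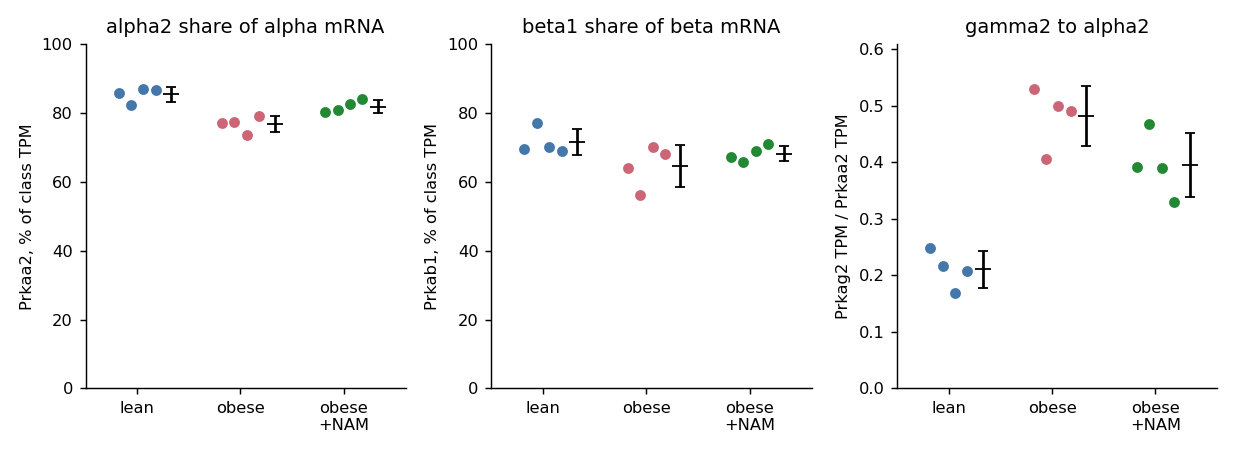
Share of alpha2 in alpha TPM, share of beta1 in beta TPM (both in %), and the ratio of Prkag2 to Prkaa2 TPM, per sample, with the mean and SD of each group of 4 in black and all axes starting at 0. The alpha2 share of every obese sample is below that of every lean sample, the beta1 shares overlap between groups, and the gamma2 to alpha2 ratio is lowest in the lean samples.

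Among the beta subunits, which hold the complex together and bind glycogen, Prkab1 followed the direction of Prkaa2 with smaller changes and Prkab2 differed less. Prkab1 measured 13.3, 12.4, 11.6 and 9.73 TPM in lean, 6.83, 5.90, 7.76 and 8.68 in obese, and 12.1, 10.6, 12.3 and 11.5 in NAM-treated samples. The obese samples were again below all others. Prkab1 fell by 0.63 in obese hearts (SE 0.12, limma adjusted p = 0.00534) and rose by 0.62 with NAM (SE 0.12, limma adjusted p = 0.00446). Between NAM-treated and lean hearts the difference was -0.0098 (95% interval -0.27 to 0.25). Neither call held after rescaling, where the differences were -0.39 (adjusted p = 0.118) and 0.32 (adjusted p = 0.203), and lean and obese samples then overlapped.

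Prkab2 measured 5.81, 3.69, 4.95 and 4.40 TPM in lean, 3.86, 4.60, 3.33 and 4.08 in obese, and 5.91, 5.54, 5.57 and 4.73 in NAM-treated samples. Lean samples overlapped with both other groups, and the lowest NAM-treated sample lay just above the highest obese sample. The difference between obese and lean hearts was -0.19 (95% interval -0.46 to 0.074, limma adjusted p = 0.290). Prkab2 rose with NAM by 0.38 as deposited (limma adjusted p = 0.0378), against 0.11 after rescaling (adjusted p = 0.681). The deposited call was lost without obese replicate 1, 3 or 4 or NAM-treated replicate 1, 2 or 3, where the value was 0.31 to 0.39 with adjusted p of 0.0572 to 0.104. Prkab2/Prkab1 was 0.403 ± 0.0711 (SD, n = 4) in the lean, 0.561 ± 0.157 in the obese and 0.468 ± 0.0470 in the NAM-treated hearts, and the groups overlapped. Its smallest p was 0.0857, for obese against lean hearts, in the exact permutation test (0.129 adjusted over the 6 tests). Beta1 made up 71.4 ± 3.80% of beta TPM in the lean, 64.5 ± 6.11% in the obese and 68.2 ± 2.19% in the NAM-treated hearts.

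Prkag2, the gamma2 subunit, did not fall in obese hearts and was highest with NAM. Prkag2 measured 5.68, 4.58, 3.90 and 4.36 TPM in lean, 5.10, 5.67, 5.05 and 6.07 in obese, and 8.65, 7.92, 8.33 and 7.90 in NAM-treated samples. All NAM-treated samples exceeded all others, and lean and obese samples overlapped as deposited. The means were 4.63 ± 0.758 TPM (SD, n = 4), 5.47 ± 0.487 and 8.20 ± 0.356. Prkag2 rose by 0.72 in NAM-treated against lean hearts (SE 0.10, limma adjusted p = 0.00516), a fold change of 1.64, and by 0.65 after rescaling (adjusted p = 0.00441). That call held with any of the 12 samples left out on either scale, with a highest adjusted p of 0.0208.

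Against obese hearts Prkag2 rose with NAM by 0.51 as deposited (SE 0.10, limma adjusted p = 0.00553), and the rescaled difference was 0.23 (95% interval 0.029 to 0.43, adjusted p = 0.255). Between obese and lean hearts the difference was 0.21 as deposited (limma adjusted p = 0.180) and 0.43 after rescaling (adjusted p = 0.0457). The rescaled call held without lean replicate 1 and was lost without any of the other 11 samples, where the value was 0.37 to 0.46 with adjusted p of 0.0539 to 0.117. The rescaled levels ranged from 3.74 to 5.19 in lean, 5.77 to 6.93 in obese and 7.03 to 7.97 in NAM-treated samples, so no groups overlapped on that scale. Relative to the 13 cardiomyocyte markers, the log2 level of Prkag2 was -7.72 ± 0.143 (SD, n = 4) in the lean, -6.95 ± 0.197 in the obese and -6.80 ± 0.0558 in the NAM-treated hearts. Every obese and NAM-treated sample lay above every lean sample in this measure, and the obese and NAM-treated samples overlapped. The markers themselves had a median change of -0.27 in obese against lean hearts after rescaling. Prkab2 separated as well, at -7.95 to -7.55 in lean and -7.53 to -7.25 in obese samples, though its rescaled change was 0.016. The mean of Prkaa1 went from -8.01 in lean to -7.61 in obese hearts, with overlap. The share of all genes that separate in this measure was not computed.

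Prkag2 and Prkaa2 stood in different proportion in the groups. Prkag2/Prkaa2 was 0.210 ± 0.0325 (SD, n = 4) in the lean, 0.481 ± 0.0528 in the obese and 0.395 ± 0.0565 in the NAM-treated hearts. The lean samples, at 0.170 to 0.248, lay below all obese samples, at 0.406 to 0.529, and all NAM-treated samples, at 0.330 to 0.468, whereas the obese and NAM-treated samples overlapped. This ratio was chosen after the values were seen and is given without a test. Prkag3, an isoform known mainly from skeletal muscle, was near the filter with 1.37 ± 0.240 TPM in the lean, 0.978 ± 0.318 in the obese and 1.62 ± 0.239 in the NAM-treated hearts (SD, n = 4). It rose with NAM by 0.41 as deposited (limma adjusted p = 0.0365), a call that was lost after rescaling, where the difference was 0.24 (adjusted p = 0.420) and the groups overlapped.

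**Figure D3:**
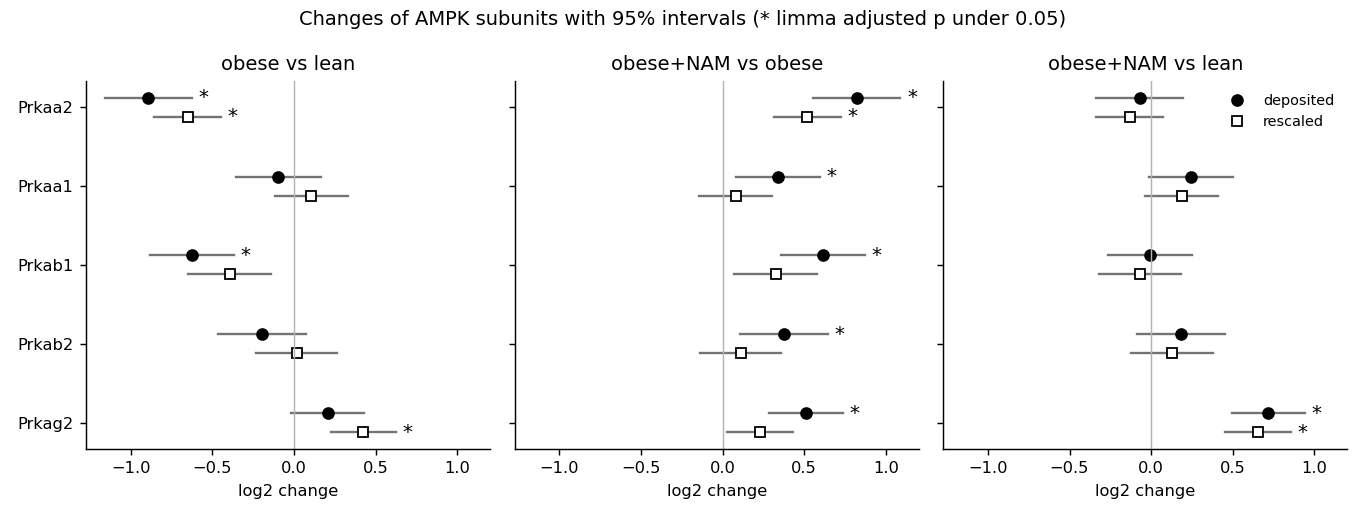
Log2 change of each AMPK subunit in the 3 comparisons, with 95% intervals from limma, for deposited TPM (filled circles) and rescaled values (open squares). Asterisks mark an adjusted p under 0.05. On both scales Prkaa2 is lower in obese than in lean hearts and Prkag2 is higher in NAM-treated than in lean hearts, while Prkab1 passes the test as deposited and not after rescaling.

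Counted over the subunits, 2 of the 5 fell and none rose in obese against lean hearts as deposited, where 16.5% of all tested genes fell and 0.352% rose. After rescaling 1 fell and 1 rose, against 0.751% and 0.589% of all genes. The 2 that fell as deposited did so without overlap between groups, as 23.8% of all genes differed, and after rescaling the 2 called members did not overlap, against 9.57% of all genes. With NAM all 5 measured members rose against untreated obese hearts as deposited, where 28.8% of all genes rose, and 1 did after rescaling, where 0.200% rose. Of these, 4 did not overlap as deposited (28.4% of all genes) and 3 after rescaling (9.18%). Between NAM-treated and lean hearts 1 member rose on each scale, Prkag2, against 0.865% of all genes as deposited and 0.770% after rescaling, and it alone did not overlap (10.7% and 12.2% of all genes). The median change of the 5 members was -0.19 in obese against lean and 0.51 in NAM-treated against obese hearts as deposited, beside -0.20 and 0.25 for all genes.

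The order of the subunit levels was partly shared by the groups. Prkaa2 was the most abundant member in each group, without overlap with the next, Prkab1, and its mean over all samples stood at percentile 82.2 of the 10526 genes. Prkab1 stood at percentile 71.9, Prkag2 at 58.7, Prkab2 at 50.6 and Prkaa1 at 45.6. In lean hearts Prkab2, Prkag2 and Prkaa1 followed with neighbouring levels that overlapped. In NAM-treated hearts Prkag2 stood clear of Prkab1 above it and of Prkab2 below it, and in obese hearts it overlapped with Prkab1.

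The genes whose rescaled pattern over the 12 samples was most like that of Prkaa2, among 4977 with a mean of at least 5 TPM, were Ppp1r12b, Lpgat1, Coa5, Hif1an, Wipf3 and Tns1. Likeness was the root mean squared difference of centred log2 values, 0.117 for Ppp1r12b to 0.140 for Tns1, against 0.304 for the deviations of Prkaa2 itself. Ppp1r12b, a regulatory subunit of myosin phosphatase, had 12.4 ± 0.940 TPM (SD, n = 4) in the lean, 7.43 ± 0.956 in the obese and 13.0 ± 1.08 in the NAM-treated hearts. Hif1an, the asparagine hydroxylase that restrains hypoxia-inducible factors, had 12.1 ± 0.914, 6.10 ± 1.19 and 10.6 ± 2.08 TPM. Prkab1 ranked 259 and Prkag2 ranked 4220 of the 4977. These genes were chosen for the pattern, so their levels are a description.

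Around the subunits, 6 lists of genes that act on AMPK, handle AMP, are acted on by AMPK or encode AMPK-related kinases held 92 distinct tested genes. As deposited, 29 fell and none rose in obese against lean hearts, and 42 rose and none fell with NAM, where 16.5% of all tested genes fell and 28.8% rose in the same comparisons. The median change of the 92 was -0.30 and 0.31, beside -0.20 and 0.25 for all genes. After rescaling, 1 fell in obese hearts, where 0.751% of all genes fell and 0.589% rose. None changed with NAM on that scale, where 0.200% of all genes rose and 0.513% fell. These rescaled shares of all genes also stand beside the rescaled counts of each list below, so few or no calls are near the share of all genes. With 1 sample left out in turn, the count in obese hearts as deposited ranged from 16 to 35. It was 16 to 19 without lean replicate 1 or obese replicate 3 or 4. The count with NAM against untreated obese hearts ranged from 29 to 46. Between NAM-treated and lean hearts 1 rose and 2 fell as deposited, where 0.969% of all genes fell, and 2 fell after rescaling, where 1.59% fell. The count of 3 became 0 to 2 with 1 sample left out. It was 0 to 1 with 10 of the 12 samples left out in turn, the exceptions being obese replicates 1 and 2.

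Upstream of AMPK, Stk11, which encodes LKB1, did not pass the test on either scale. Its difference was -0.17 in obese against lean hearts (limma adjusted p = 0.232) and 0.043 with NAM (adjusted p = 0.769) as deposited, and both turned direction after rescaling, to 0.041 (adjusted p = 0.885) and -0.22 (adjusted p = 0.295). Of 13 tested upstream kinases and phosphatases, 3 fell in obese hearts and 6 rose with NAM as deposited, beside 16.5% and 28.8% of all genes, and none changed after rescaling. Cab39, the MO25 scaffold of LKB1, fell by 0.38 (limma adjusted p = 0.0103) and rose by 0.42 (adjusted p = 0.00495), against -0.13 and 0.11 after rescaling. Ppm1a and Ppm1b, phosphatases that can remove the activating phosphate of AMPK, fell by 0.36 and 0.37 and rose by 0.38 and 0.40. Rescaled, they stood at -0.11 and -0.12 in obese hearts and at 0.070 and 0.090 with NAM. Camkk2, the calcium-dependent upstream kinase, was below the filter, at 0.344 TPM in the lean, 0.294 in the obese and 0.253 in the NAM-treated hearts on average.

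Among 13 regulators and interactors, 6 fell in obese hearts and 5 rose with NAM as deposited, where 16.5% and 28.8% of all genes did, and none changed in these comparisons after rescaling. Ckm, the cytosolic muscle creatine kinase and also a cardiomyocyte marker, fell by 0.68 in obese hearts (limma adjusted p = 0.00210), against -0.42 after rescaling (adjusted p = 0.0634). It was lower in NAM-treated than in lean hearts on both scales, at -0.46 (limma adjusted p = 0.0382) and -0.52 after rescaling (adjusted p = 0.0193). Ckmt2, the mitochondrial creatine kinase, fell by 0.40 and rose by 0.42 with NAM, against -0.14 and 0.098 after rescaling. Trim72, a membrane repair protein of striated muscle, fell by 0.59 in obese hearts, against -0.33 after rescaling. Nmnat1, the nuclear enzyme that makes NAD+ from nicotinamide mononucleotide, fell by 0.36 and rose by 0.43, against -0.14 and 0.16. Smpd1, a lysosomal sphingomyelinase, rose with NAM by 0.45, against 0.14.

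Among 13 genes of AMP metabolism, 4 fell in obese hearts and 7 rose with NAM as deposited, beside 16.5% and 28.8% of all genes, and none did after rescaling. Adk, which phosphorylates adenosine to AMP, fell by 0.44 (limma adjusted p = 0.0134) and rose by 0.40 (adjusted p = 0.0149), against -0.19 and 0.080 after rescaling. Adssl1, the muscle adenylosuccinate synthase, fell by 0.48 in obese hearts, against -0.23 after rescaling. The AMP deaminase Ampd3 fell by 0.30 and rose by 0.31, against -0.072 and 0.024. Ak3, a mitochondrial adenylate kinase, fell by 0.29 and rose by 0.42, against -0.032 and 0.10, and Adsl, which releases AMP from adenylosuccinate, rose by 0.42, against 0.11. Nt5e, the ectonucleotidase CD73 that turns AMP into adenosine, was the gene that rose in NAM-treated against lean hearts, by 0.39 (limma adjusted p = 0.0404), against 0.33 after rescaling (adjusted p = 0.0669). Nt5e also rose by 0.42 with NAM against untreated obese hearts as deposited, against 0.14 after rescaling. Aprt, which salvages adenine to AMP, fell by 0.58 in NAM-treated against lean hearts as deposited (limma adjusted p = 0.0465), and the change was -0.64 after rescaling (adjusted p = 0.0345).

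Among 23 metabolic targets, 7 fell in obese hearts and 10 rose with NAM as deposited, where 16.5% and 28.8% of all genes did. After rescaling 1 fell in obese hearts and none rose with NAM, where 0.751% and 0.200% of all genes did. Slc2a4, the insulin-regulated glucose transporter GLUT4, had 63.4 TPM in the lean, 29.2 in the obese and 48.2 in the NAM-treated hearts on average. It fell by 1.10 in obese hearts (limma adjusted p = 0.00183), and the change was -0.84 after rescaling (adjusted p = 0.0350), as the only listed pathway gene called on that scale in this comparison. It rose with NAM by 0.68 as deposited (limma adjusted p = 0.00820), against 0.37 after rescaling (adjusted p = 0.309). Ppargc1a, the coactivator PGC-1alpha, fell by 0.66 and rose by 0.56, against -0.43 (adjusted p = 0.0580) and 0.28 after rescaling. Acacb, the acetyl-CoA carboxylase that limits fatty acid entry into mitochondria, fell by 0.62 and rose by 0.51, against -0.39 and 0.23. Acaca, its cytosolic counterpart, fell by 0.40 and rose by 0.45, against -0.26 and 0.28. Pfkfb2, the cardiac activator of glycolysis phosphorylated by AMPK, fell by 0.96 in obese hearts (limma adjusted p = 0.00547), against -0.74 after rescaling (adjusted p = 0.0822), and was at 0.35 with NAM (adjusted p = 0.156). Tbc1d1, a regulator of glucose transporter traffic, passed in neither comparison, at -0.15 and 0.097 as deposited, and turned direction after rescaling, at 0.014 and -0.11.

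Among 22 growth and autophagy targets, 7 fell in obese hearts and 12 rose with NAM as deposited, beside 16.5% and 28.8% of all genes, and none changed after rescaling. Ulk1, the kinase that starts autophagy, fell by 0.60 (limma adjusted p = 0.00584) and rose by 0.56 (adjusted p = 0.00609), against -0.39 and 0.30 after rescaling. Tsc1, a brake on mTORC1, fell by 0.52 and rose by 0.43, against -0.36 and 0.23. The lysosomal GTPase Rragd fell by 0.61 and rose by 0.53, against -0.37 and 0.23, and Rragc rose with NAM by 0.47, against 0.17.

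Of 8 AMPK-related kinases, which share LKB1 as an activator, 2 fell in obese hearts and 2 rose with NAM as deposited, where 16.5% and 28.8% of all genes did, and none changed after rescaling. With so few genes these shares are near those of all genes. Mark4 fell by 0.45 and Sik3 fell by 0.36 in obese hearts, against -0.31 and -0.16 after rescaling. Snrk rose by 0.43 and Sik2 by 0.39 with NAM, against 0.16 and 0.17. Mark2 and Mark3 passed in neither comparison, at -0.25 and -0.29 in obese hearts and 0.38 and 0.23 with NAM as deposited. Rescaled, they stood at -0.062 and -0.060 in obese hearts and at 0.15 and -0.065 with NAM.

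**Figure D4:**
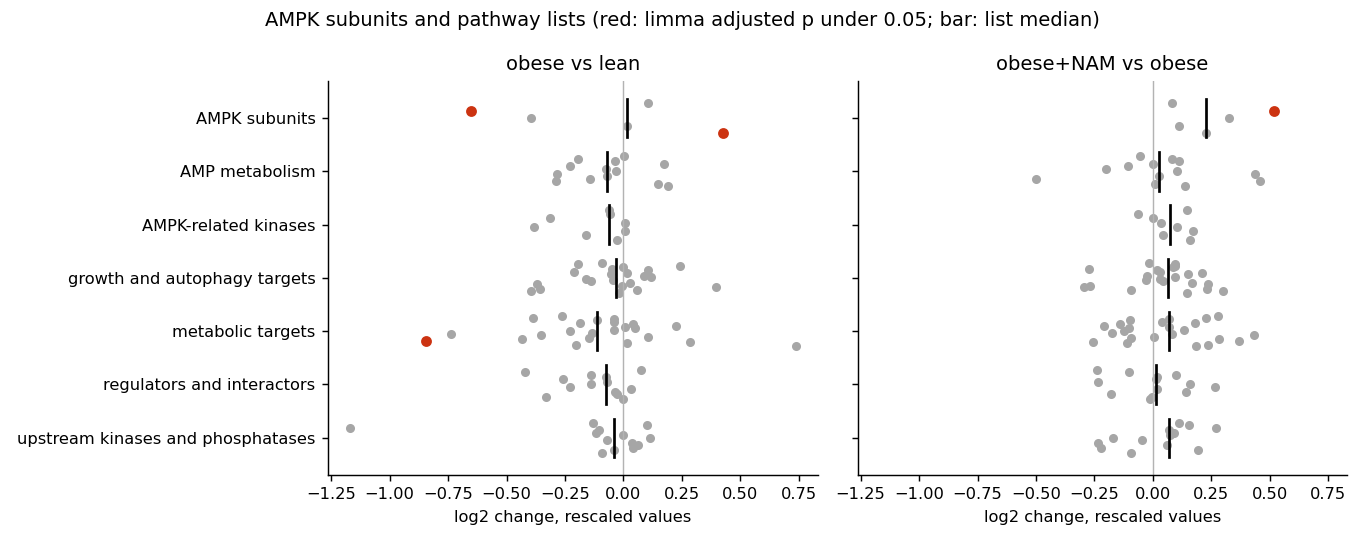
Log2 change of rescaled values for the 5 measured AMPK subunits and the tested genes of the 6 pathway lists, in obese against lean (left) and NAM-treated against obese hearts (right). Each point is a gene, black bars are list medians, and red points have a limma adjusted p under 0.05. The red points are Prkaa2, Prkag2 and Slc2a4 on the left and Prkaa2 on the right.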

How the data were processed

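Per the labels' protocols, TRIzol and RNeasy kits gave the RNA, from which strand-specific libraries were made. The authors deposited TPM per gene, which the submitters' processing notes tie to the Rnor_6.0 build and to limma without a version. The software for alignment and quantification was not given in the sources used here. The NAM-treated columns hold a text mark in place of a number for 498 of the 17602 genes, and these genes were left out. Replicate numbers were taken from sample titles. Depth per sample is unknown for TPM, and the spread among samples sets the precision.

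The 10526 genes that reached 1 TPM in 4 or more of the 12 samples were fitted as log2(TPM + 1) with limma 3.58.1 (statmod 1.5.0, R 4.3.3), with 3 group means over all samples and eBayes with trend and robust. Benjamini-Hochberg adjustment ran over all genes within each of 3 two-sided comparisons, with a threshold of 0.05, and adjusted p-values for genes come from limma. A fold change on this scale understates that of low genes. The rescaled fit divided TPM by each sample's median ratio to the geometric mean over the same genes. Isoform ratios were compared by a two-sided exact permutation test, with 6 tests in the family. The fit was tested on simulated data. Python 3.11.15, pandas 2.3.3, numpy 2.4.6 and scipy 1.17.1 were used for the remaining values.

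Members and gene lists were chosen with earlier results of these data known. The text names the subunits, up to 3 members of each pathway list with the smallest p in obese against lean and in NAM-treated against obese hearts, a few set genes of the pathway (Stk11, Camkk2, Acacb, Ppargc1a, Tbc1d1, Ulk1, Fnip1), and the 6 genes most like Prkaa2. Aprt was named after its values were seen, as 1 of few genes called in NAM-treated against lean hearts, and Myh7 as the marker that rose. Fnip1 was not analysed here. Alternatives varied the pseudocount, filter, scaling, variance model, samples in the fit, replicate block and left-out samples; leaving out samples after rescaling, the Prkag2/Prkaa2 ratio and the levels relative to cardiomyocyte markers were added after the data were seen.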

Additional observations from a re-analysis of the deposited data

Results flagged for a closer look

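In lean hearts, the Prkab2/Prkab1 ratio of replicate 2 was 0.297 and lay farther from the other 3 lean samples, at 0.426 to 0.452, than a sample of 4 usually does. It was the only such value among the 24 groups of 4 examined for the subunits and their ratios, and chance gives about 1 in 20.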

How the results depend on the processing

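As deposited, the calls of Prkaa2 and Prkab1 in obese against lean and in NAM-treated against obese hearts, and of Prkag2 with NAM against both other groups, kept their direction and side of the threshold under either other pseudocount, without a filter, with the other variance model, with only the groups compared, and with any sample left out. A mean of at least 5 TPM left no value for Prkaa1 and Prkab2. Scaling mattered most. After median-of-ratios rescaling, obese against lean gave -0.39 for Prkab1 and 0.43 for Prkag2, and a turned direction for Prkaa1 (0.11) and Prkab2 (0.016); NAM-treated against obese gave 0.32 for Prkab1, 0.080 for Prkaa1, 0.11 for Prkab2 and 0.23 for Prkag2. With TPM recomputed without mitochondrially encoded genes, obese against lean gave -0.38 for Prkab1 (limma adjusted p = 0.136), 0.53 for Prkag2 (0.0319), 0.17 for Prkaa1 and 0.063 for Prkab2; NAM-treated against obese gave 0.21 for Prkaa1, 0.24 for Prkab2 and 0.37 for Prkag2 (0.0623); and NAM-treated against lean gave 0.093 for Prkab1 and 0.032 for Prkaa2. Without the mitochondrially encoded genes Prkab1 kept its call with NAM against obese hearts (0.47, limma adjusted p = 0.0492). Prkaa2 kept its calls in obese against lean (-0.63, adjusted p = 0.0259) and NAM-treated against obese hearts (0.66, adjusted p = 0.0287). Prkag2 kept its call in NAM-treated against lean hearts (0.90, adjusted p = 0.00085). The calls of Prkaa1 (0.34) and Prkab2 (0.38) with NAM as deposited were lost without a filter, and that of Prkaa1 (0.34) with only the 2 groups compared. The causes of these shifts were not tested.

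With 1 sample left out, NAM-treated against obese ranged from 0.27 to 0.40 for Prkaa1 and from 0.31 to 0.44 for Prkab2, and NAM-treated against lean from -0.13 to 0.027 for Prkaa2 and from -0.091 to 0.048 for Prkab1. After rescaling, NAM-treated against obese ranged from 0.47 to 0.59 for Prkaa2, and obese against lean from 0.37 to 0.49 for Prkag2 and from -0.066 to 0.088 for Prkab2. The ratio of Prkag2 to Prkag1 could not be computed. The number of called pathway genes, 29, 42 and 3 in the 3 comparisons, was 1, 0 and 2 after rescaling and 1, 0 and 6 without mitochondrially encoded genes, and the last became 0 without a filter.

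Samples with the same replicate number did not deviate together, with r of -0.049 to 0.072 over 12 pairs, beside -0.0865 to 0.0787 over 36 pairs with different numbers. The correlation runs over all tested genes, so it cannot exclude a pairing that acts on few of them. With a replicate block, Prkaa1 (0.34, limma adjusted p = 0.0800) and Prkab2 (0.38, adjusted p = 0.0607) lost their call with NAM, the other member calls held, and the counts of pathway genes were 24, 39 and 2. For the isoform ratios, sign flips within the replicate block, an exact permutation test, can give no p below 0.125.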
